A study of Mus musculus with 10 samples.

Results

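Potassium channel genes were followed in αTC1, a mouse cell line of tumour origin that makes glucagon, after 48 h in 10 μM enzalutamide, a blocker of the androgen receptor, or in the solvent DMSO. The series title sets the treatment among ways to turn α cells toward β cells. The members were all entries of the count table whose symbol starts with Kcn, together with Abcc8 and Abcc9, which encode the sulfonylurea receptors. These were 97 entries with 96 distinct symbols, of 33212 entries in all, and 37 of them had a mean of at least 0.2 CPM (counts scaled to library size) over the 10 libraries and were tested. Polyadenylated RNA was sequenced in 5 DMSO and 5 enzalutamide libraries, which the labels call biological replicates without saying whether they were separate cultures. Both groups are the same line in low-glucose DMEM with serum, the DMSO group carrying the solvent only. The cells are 1 tumour line, so the values describe that line and not α cells in an islet.

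Potassium channels set the resting potential of endocrine cells and end their action potentials. In islet cells the ATP-sensitive potassium channel, or KATP channel, joins metabolism to firing: it is an octamer of the pore subunit Kir6.2, encoded by Kcnj11, and the sulfonylurea receptor SUR1, encoded by Abcc8, and it closes when ATP rises relative to ADP. Voltage-gated channels (among them the Kv and ERG subfamilies), calcium-activated channels and two-pore-domain leak channels then shape how often the cell fires and how much hormone it releases.

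The transcripts that changed went in both directions over the members as a whole. Within a subfamily both directions were seen only in Kcnh and Kcnk. These splits rested on Kcnh6 as lower and Kcnk3 as higher. Both genes failed the test when certain single libraries were left out and under some changes of processing. Abcc8 rose while its partner Kcnj11 did not pass the test, Kcnh2 rose whereas its paralogue Kcnh6 was slightly lower, and Kcnip3 and Kcnn1 rose while Kcnk16 and Kcnj15 fell. A quasi-likelihood fit in edgeR, with p-values adjusted by Benjamini and Hochberg's method over 13796 genes, called 10 of the 37 tested members higher and 4 lower at 0.05, that is 37.8% of them. By direction, 27% of the members were higher and 10.8% lower. The 10 include Kcnt2, which reached the limit for testing only through its level in enzalutamide. Over all genes tested 38.9% passed, 19.3% higher and 19.7% lower. The members' share in either direction was thus near the background, while their higher share was above it and their lower share below it. These shares mix levels, and scarce genes passed less often. The members were not tested as a set. With total-count scaling the calls over all genes split into 3297 higher and 2141 lower, against 2656 and 2713 here. The median log2 change was 0.16 over the 37 members and 0.00 over all genes tested. The CPM values of the groups did not overlap for 9 of the 37 members (24.3%), against 27.6% of all genes tested.

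How many members passed differed with their level. Of the 9 members with a mean of at least 10 CPM, 5 were higher and 2 lower (77.8%), against 49.3% of all genes at that level that passed in either direction. Of the 13 tested members with a mean under 1 CPM, 1 was higher and 1 lower (15.4%), against 7.74% of all genes at that level. Both shares of the members were above those of all genes, but on few members. The median SE of the log2 change was 0.0338 in the abundant members and 0.467 in the scarce ones, so that only large differences were detectable in the latter. The tested member nearest the limit of 0.2 CPM was Kcnrg, at a mean of 0.204 CPM, and the nearest member left out was Kcna5, at 0.192 CPM.

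Depth was alike in the groups. Counts summed to between 59557697 and 68603842 per library, and 3 counts corresponded to between 0.044 and 0.0498 CPM. A limit of this kind covers counting error only, and in this table values of 4 were nearly as frequent as values of 1 (4047 and 4939 values over all genes), so whether a low count is a number of single reads is not known, and a gene at 0 is given as listed at 0. The 7 α cell markers were all detected, and their summed level was 18436 to 19674 CPM in DMSO and 10925 to 12133 CPM in enzalutamide. Of the 7 β cell markers Ins1, Pdx1 and Ucn3 were listed at 0 in all libraries, and the list summed to between 1.12 and 2.85 CPM in DMSO and between 1.01 and 2.17 CPM in enzalutamide. Sst and Ppy, which define δ and PP cells, were listed at 0, as was the leukocyte gene Ptprc, while fibroblast markers summed to 6.62 to 7.72 CPM in DMSO and 7.54 to 9.79 CPM in enzalutamide. Duct markers summed to 11.2 to 11.9 CPM and 8.49 to 11 CPM in the same order, all of it from Sox9, since Krt19 was listed at 0. The part of these shifts in the potassium channel results was not tested. In such bulk libraries fewer cells with a transcript and less of it per cell cannot be told apart.

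Per exon length, the potassium channel transcripts of the line were dominated by a small set. In DMSO the highest level was that of Abcc8, at 31.3 ± 0.9 CPM per kb of exon (SD, n = 5 here and throughout). Next came the ERG channel genes Kcnh6 (26 ± 0.967) and Kcnh2 (24.2 ± 0.397), and further down the Kv β subunit gene Kcnab2 (14.8 ± 0.337) and Kcnj11 (13.9 ± 0.732), all in CPM per kb. Kcnip3, Kcnk3 and Kcnk16 were at 10.7, 8.17 and 3.64 CPM per kb. Among these 8 genes the values of neighbours in the order overlapped in DMSO only for Kcnab2 and Kcnj11. In enzalutamide their order was Abcc8, Kcnh2, Kcnh6, Kcnip3, Kcnab2, Kcnj11, Kcnk3 and Kcnk16, again with overlapping values between neighbours only for Kcnab2 and Kcnj11.

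The pore-forming genes summed to 125 ± 2.12 CPM per kb in DMSO and 131 ± 3.4 CPM per kb in enzalutamide, over the 28 tested. The sums of single libraries overlapped slightly between the groups, with a highest DMSO value of 127.1 and a lowest enzalutamide value of 126.96 CPM per kb. Within the sum Kcnh2 held 19.4 ± 0.265% in DMSO and 23.7 ± 0.671% in enzalutamide, whereas Kcnh6 held 20.8 ± 0.709% and 18.2 ± 0.996%. Kcnj11 held 11.2 ± 0.43% and 10.6 ± 0.24%, and Kcnk3 held 6.54 ± 0.308% and 7 ± 0.369%. These levels used the union of annotated exons. With the longest transcript, an alternative chosen after the data were seen, Abcc8 stood at 52 CPM per kb in DMSO, and Kcnh2 (27.8) stood just above Kcnh6 (27.4) in DMSO already.

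**Figure D1:**
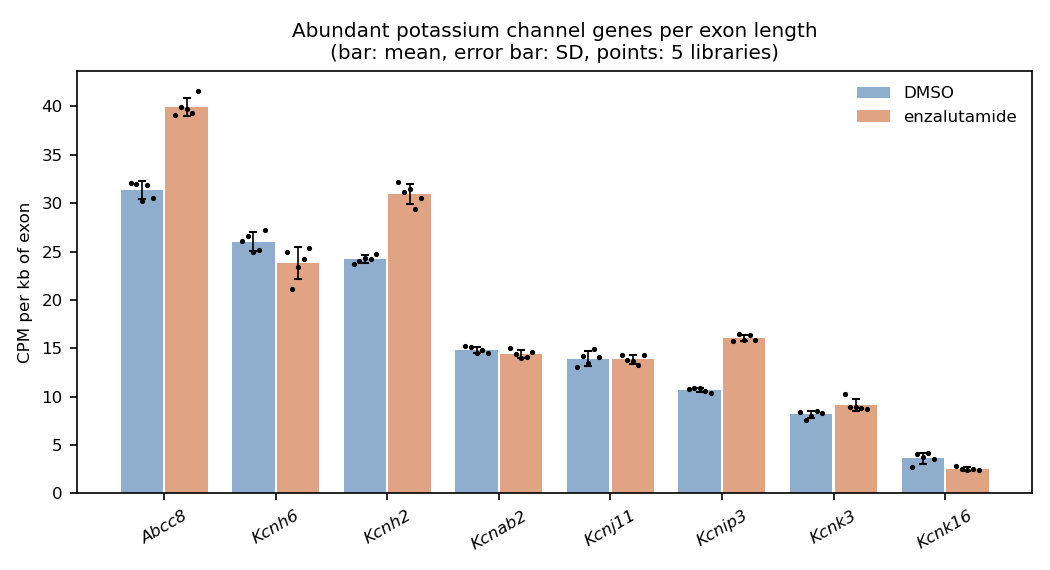
CPM per kb of exon (y axis, linear, from 0) for 8 abundant potassium channel genes in DMSO order (x axis); bars are means, error bars SD and points the 5 libraries of each group. Abcc8 was the highest in both groups, at 31.3 CPM per kb in DMSO and 40 CPM per kb in enzalutamide, and Kcnh2 stood below Kcnh6 in DMSO and above it in enzalutamide on this exon length, though not on that of the longest transcripts.

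The KATP channel genes did not move together. Abcc8 (ENSMUSG00000040136; chromosome 7, 46104523 to 46180033 of GRCm38/mm10, minus strand) was at 259.9, 258, 244, 258 and 247 CPM in DMSO libraries 1 to 5 and at 317, 323, 322, 318 and 336 CPM in enzalutamide libraries 1 to 5. The treated values of Abcc8 were all above the DMSO values. The log2 change (enzalutamide against DMSO) of Abcc8 was 0.35 (SE 0.0294, adjusted p = 6.81e-08), a 1.27-fold rise. After removal of each library's GC and length trends it was smaller, at 0.29 (adjusted p = 1.04e-08). Kcnj11 (ENSMUSG00000096146; chromosome 7, 46093953 to 46100764, minus strand), which lies 3758 bases downstream of Abcc8, was at 48, 52.1, 49.5, 55 and 51.8 CPM in DMSO and at 52.7, 50.8, 50.3, 48.8 and 52.6 CPM in enzalutamide. The groups overlapped throughout, and the log2 change was -0.01 with a 95% interval from -0.09 to 0.08 (adjusted p = 0.919).

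The difference between the KATP partners was tested as the ratio of Abcc8 to Kcnj11 per exon length within each library. The ratio was 2.46, 2.26, 2.24, 2.13 and 2.17 in DMSO libraries 1 to 5 and 2.73, 2.89, 2.91, 2.97 and 2.91 in enzalutamide libraries 1 to 5, so every treated library was above every DMSO library. Its mean went from 2.25 ± 0.128 to 2.88 ± 0.0884, a 1.28-fold rise (exact two-sided permutation test, p = 0.00794, which is the smallest that 5 against 5 libraries allow). Adjusted over the 2 ratios computed, p stayed at 0.00794 only because both stood at that smallest value, so the adjustment adds no support. Abcc8 alone already separated the groups while Kcnj11 hardly differed. The p of their ratio is therefore not support apart from the fits of the single genes. The channel itself holds equal numbers of both subunits. The height of this transcript ratio depends on the lengths used and was 3.19 in DMSO and 4.08 in enzalutamide with the longest annotated transcripts, while the fold between groups does not depend on them.

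Transcripts of the other KATP subunits, Kir6.1 and SUR2, were scarce. Abcc9, the SUR2 gene (chromosome 6, 142587862 to 142702315), rose from 4.3 ± 0.818 to 5.99 ± 0.918 CPM (log2 change 0.48 with SE 0.139, adjusted p = 0.0109), with overlapping groups because DMSO library 1 was at 5.44 CPM. Kcnj8, the Kir6.1 gene 16247 bases downstream of Abcc9, had at most 20 counts in any library, summed to 21 counts in DMSO and 33 in enzalutamide, and was not tested.

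Of the other inward rectifier genes, only 1 passed. Kcnj15, which encodes Kir4.2, was at 0.954, 0.828, 1.03, 1.72 and 1.14 CPM in DMSO libraries and at 0.663, 0.266, 0.47, 0.51 and 0.584 CPM in enzalutamide libraries. All treated values were lower than all DMSO values, and the fall was 2.28-fold (log2 change -1.19 with SE 0.309, adjusted p = 0.00538), on 18 to 116 counts per library. Kcnj9, which encodes the G protein-gated subunit GIRK3, was at 5.56 ± 0.493 and 5.44 ± 0.873 CPM (adjusted p = 0.86), and Kcnj14, the Kir2.4 gene, at 2.54 ± 0.511 and 2.34 ± 0.722 CPM (adjusted p = 0.709). In total 1 of the 4 tested Kcnj genes was lower and none higher, a share of 25% against 38.9% over all genes tested.

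**Figure D2:**
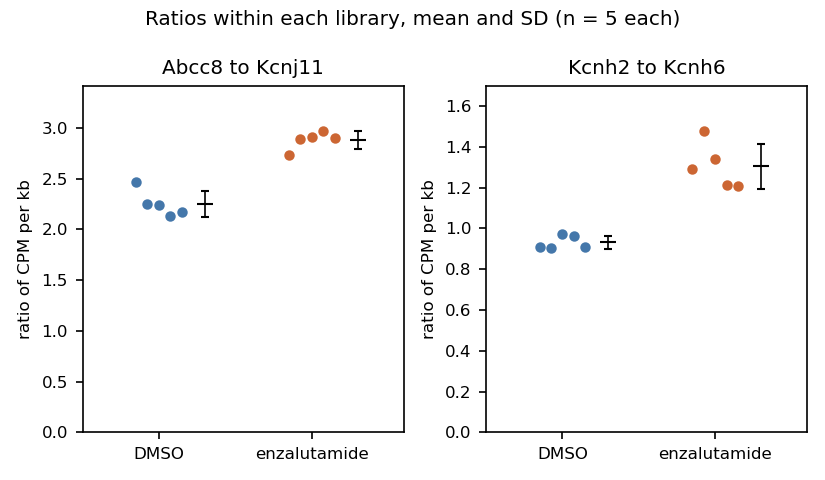
Ratio of CPM per kb of exon (y axes, linear, from 0) of Abcc8 to Kcnj11 and of Kcnh2 to Kcnh6 in each of the 5 libraries of each group (points), with mean and SD. The ratio of Abcc8 to Kcnj11 was 2.13 to 2.46 in DMSO and 2.73 to 2.97 in enzalutamide, and that of Kcnh2 to Kcnh6 was 0.903 to 0.972 in DMSO and 1.21 to 1.48 in enzalutamide.

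The ERG genes encode voltage-gated channels of the ether-à-go-go family that repolarise the membrane and are also known from the heart. Kcnh2, the ERG1 gene (chromosome 5, 24319589 to 24351604), was at 115, 117, 118, 117 and 120.1 CPM in DMSO and at 156, 151, 152, 143 and 148 CPM in enzalutamide, with no overlap. It rose 1.28-fold (log2 change 0.35 with SE 0.0316, adjusted p = 1.45e-07). After removal of each library's GC and length trends the log2 change of Kcnh2 was smaller, at 0.24 (adjusted p = 2.13e-06). Kcnh6, the ERG2 gene (chromosome 11, 106008124 to 106034549), was at 92.5, 94.6, 88.7, 89.2 and 96.6 CPM in DMSO and at 88.5, 74.8, 83.2, 85.9 and 89.9 CPM in enzalutamide. The groups overlapped, and the log2 change was -0.13 (SE 0.0462, adjusted p = 0.0362). The call on Kcnh6 ended without any 1 of 5 libraries (adjusted p between 0.0613 and 0.0939), with total-count scaling (0.141) and without a filter on low counts (0.0748).

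The ratio of Kcnh2 to Kcnh6 per exon length, a pair chosen after its values were seen, was 0.932 ± 0.0336 in DMSO and 1.31 ± 0.111 in enzalutamide. The mean ratio was 1.4-fold higher in enzalutamide, given as a description. The permutation p computed for this pair is not used as support, since the pair was picked for its opposite directions. The other tested members of the family were scarce and did not pass. Kcnh7, the ERG3 gene, was at 0.423 ± 0.194 and 0.739 ± 0.133 CPM (log2 change 0.80, adjusted p = 0.0647); it passed without DMSO library 4 (log2 change 1.12, adjusted p = 0.0118) and, on all 10 libraries, with DESeq2 (0.0491), limma-voom (0.0354) and limma-trend on the deposited normalized values (0.0347 and 0.0415 with different pseudocounts). Kcnh4 was at 0.543 ± 0.191 and 0.42 ± 0.0765 CPM (adjusted p = 0.409), and Kcnh5 at 0.282 ± 0.137 and 0.198 ± 0.242 CPM (adjusted p = 0.582).

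The 250 bases before 1 RefSeq start site of Kcnh2 and of Kcnh6 are shown 5′ to 3′ (RefSeq, GRCm38.p6). The GC box GGGCGG, the letters bound by Sp1 family factors, is in capitals on either strand. The Kcnh2 window is chr5:24329592-24329841 on the minus strand, before a start that lies inside the longer GENCODE gene, and the Kcnh6 window is chr11:106007898-106008147 on the plus strand. The sequence before the 5′ end of the longer Kcnh2 gene, at 24351604, is not shown. Which start gave the Kcnh2 counts was not tested.
Kcnh2: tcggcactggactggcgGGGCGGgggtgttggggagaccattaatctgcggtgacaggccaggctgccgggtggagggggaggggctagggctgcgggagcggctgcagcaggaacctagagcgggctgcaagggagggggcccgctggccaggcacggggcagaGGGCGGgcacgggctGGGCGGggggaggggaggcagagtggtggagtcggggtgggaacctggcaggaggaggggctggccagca
Kcnh6: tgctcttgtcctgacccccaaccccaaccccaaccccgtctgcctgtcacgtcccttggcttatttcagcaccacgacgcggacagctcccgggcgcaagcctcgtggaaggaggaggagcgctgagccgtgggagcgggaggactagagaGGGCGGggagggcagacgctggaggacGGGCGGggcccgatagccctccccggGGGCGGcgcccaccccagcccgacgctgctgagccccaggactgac
Both windows are rich in G and C (73.6% for Kcnh2 and 70.8% for Kcnh6), with 14 and 21 CG pairs. Over the windows of 300 bases, 50 of them after the start, 26 tested members had at least 1 entry, and 17 of these held GGGCGG, against 38.2% of all 27025 genes with an entry. The 27025 include genes under the limit for testing, whereas the 26 were all above it. The sets are therefore unlike, here and for the motifs below, and enrichment was not tested. The cAMP response element TGACGTCA was in none of the 26 (2.03% of all genes). TGATGNAA, a core of amino acid response elements, was in 2, Kcnab1 and Kcne2 (4.51% of all genes), and the E-box CACGTG in 2, Kcnab1 and Kcnh4 (8.09% of all genes). Each motif was searched on both strands, and none of the 4 contains another. Abcc8 and Kcnj11 had no entry.

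Kv3 channels open at high voltages and close fast, which lets cells fire rapidly. Kcnc4, the Kv3.4 gene (chromosome 3, 107438303 to 107459552), was at 1.74, 2.29, 2.65, 2.34 and 1.55 CPM in DMSO and at 3.95, 3.28, 2.67, 3.14 and 3.89 CPM in enzalutamide. The lowest treated value was just above the highest DMSO value, and the rise was 1.6-fold (log2 change 0.68 with SE 0.176, adjusted p = 0.0052). Kcnc1, the Kv3.1 gene, was listed at 0 in 1 library of each group and at up to 0.538 CPM elsewhere (adjusted p = 0.454).

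Kcnd1 and Kcna6, of other voltage-gated subfamilies, did not pass. Kcnd1, which encodes the A-type channel Kv4.1, was at 5.83 ± 0.407 and 6.19 ± 0.489 CPM (adjusted p = 0.512). Kcna6, the only tested member of the Kv1 subfamily, was at 0.154 ± 0.0358 and 0.279 ± 0.139 CPM (log2 change 0.85, adjusted p = 0.14), and 39.6% of its exon length is shared with another annotated gene, Gm26673.

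Among auxiliary and regulatory subunits 3 of 9 tested genes, counting both sulfonylurea receptors, were higher and none lower, a share of 33.3% that is no larger than the 38.9% called over all genes tested. Kcnip3 (chromosome 2, 127456498 to 127522094) encodes a calcium sensor, also called calsenilin or DREAM, that binds Kv4 channels and can repress transcription. It was at 38.4, 38.5, 38.5, 37.4 and 36.8 CPM in DMSO and at 55.9, 58.6, 56.3, 57.9 and 56.2 CPM in enzalutamide. The spread within groups was small against the difference, and Kcnip3 rose 1.5-fold (log2 change 0.59 with SE 0.0378, adjusted p = 2.48e-09), the lowest adjusted p among the members. Kcnip4, another calcium sensor of Kv4 channels, was at 5.07 ± 1.2 and 5.76 ± 1.28 CPM (adjusted p = 0.412).

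The Kv β subunit gene Kcnab2, the most abundant auxiliary gene after Abcc8, was at 82.8 ± 1.88 and 80.4 ± 2.29 CPM (log2 change -0.04, 95% interval -0.11 to 0.02, adjusted p = 0.356). After removal of each library's GC and length trends Kcnab2 passed as lower (log2 change -0.11, adjusted p = 0.00565). Kcnab1 and Kcnab3, of the same subfamily, had adjusted p-values of 0.603 and 0.772. Kcne2, a small single-span subunit, and Kcnrg, a regulator of channel assembly, were at 0.341 and 0.149 CPM in DMSO and at 0.423 and 0.259 CPM in enzalutamide, with adjusted p-values of 0.652 and 0.451.

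**Figure D3:**
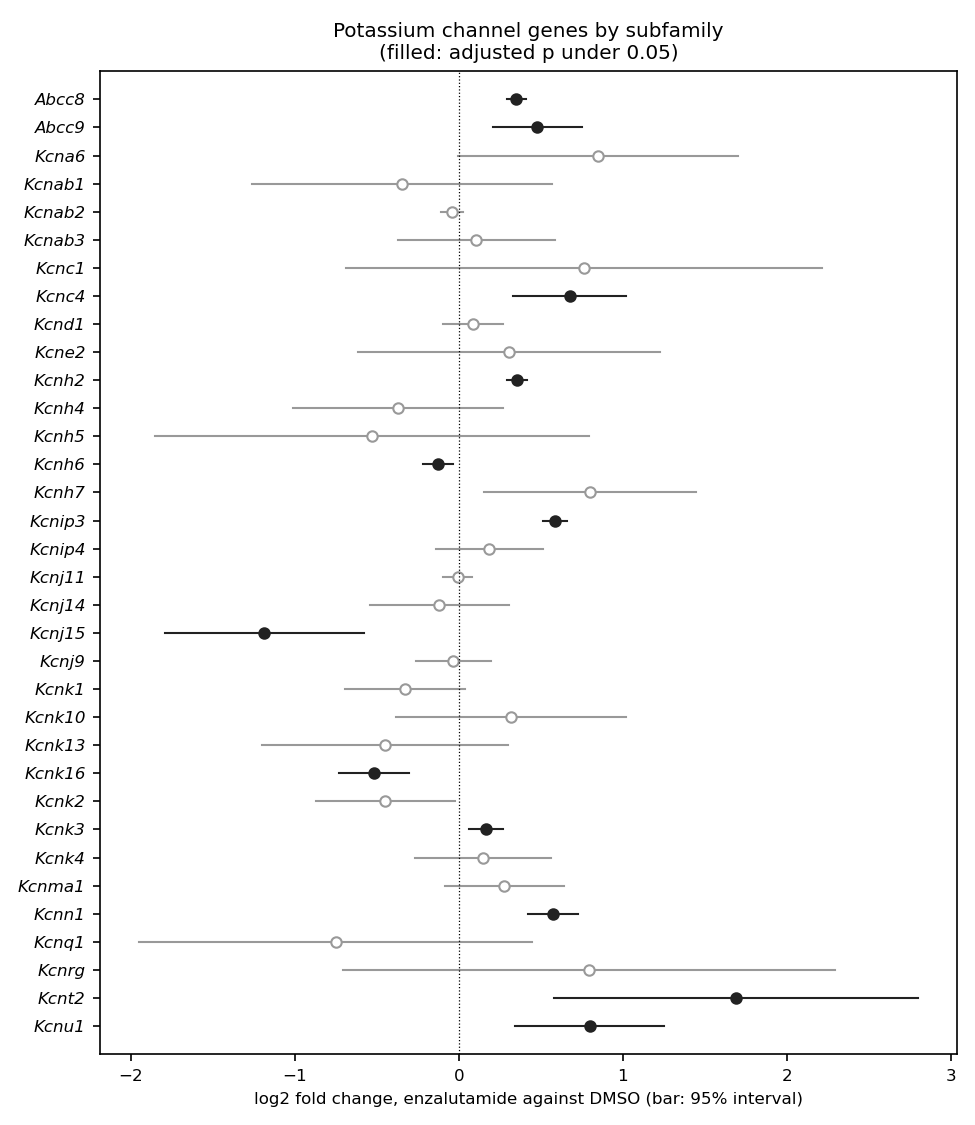
Log2 change of enzalutamide against DMSO (x axis, 95% interval as bar) for 34 of the 37 tested potassium channel genes grouped by subfamily (y axis); filled points passed an adjusted p under 0.05. The 9 filled points to the right and 3 to the left show that no direction was shared by the family, and open points with wide bars are mostly genes under 1 CPM.

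Of the Kcnq subfamily, which encodes slowly opening voltage-gated channels, Kcnq3 and Kcnq5 were listed at 0 in all libraries. Kcnq1, on 1 to 33 counts per library, was at 0.26 ± 0.175 and 0.155 ± 0.0977 CPM (adjusted p = 0.366).

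Among the two-pore-domain genes, which encode leak channels, 1 was called higher and 1 lower. Kcnk3, the gene of the acid-sensitive channel TASK1 (chromosome 5, 30588170 to 30625271), was at 33.4, 30.2, 32, 34 and 33 CPM in DMSO and at 41, 35.6, 35.5, 35.2 and 34.8 CPM in enzalutamide. The groups did not overlap, though the treated group was led by library 1, and the log2 change was 0.16 (SE 0.0533, adjusted p = 0.021). The call on Kcnk3 ended without enzalutamide library 1 (log2 change 0.12, adjusted p = 0.065), without DMSO library 2 (adjusted p = 0.0605) and after removal of GC and length trends (log2 change 0.09, adjusted p = 0.202).

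Kcnk16, the gene of the alkaline-activated channel TALK1, known for its expression in islets (chromosome 14, 20261376 to 20269199), was at 6.5, 9.59, 8.9, 9.94 and 8.37 CPM in DMSO and at 6.78, 5.96, 5.77, 6.12 and 5.65 CPM in enzalutamide. DMSO library 1 was the only one of its group within the range of the treated group, and Kcnk16 fell 1.43-fold (log2 change -0.52 with SE 0.108, adjusted p = 0.00103). Kcnk2, the gene of the mechanosensitive channel TREK1, was at 3.48 ± 0.971 and 2.55 ± 0.757 CPM (log2 change -0.45, adjusted p = 0.114), but passed without DMSO library 1 (log2 change -0.56, adjusted p = 0.0479) or without enzalutamide library 4 (-0.62, adjusted p = 0.0304). Kcnk1, the TWIK1 gene, was at 3.6 ± 0.898 and 2.86 ± 0.59 CPM (adjusted p = 0.181). Kcnk4, Kcnk10 and Kcnk13, which encode TRAAK, TREK2 and THIK1, had adjusted p-values of 0.63, 0.529 and 0.387. This left 1 of 7 tested Kcnk genes higher and 1 lower, a share of 28.6% against 38.9% over all genes tested.

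Small-conductance calcium-activated channels follow each calcium rise with a hyperpolarisation, and Kcnn1, the SK1 gene (chromosome 8, 70842049 to 70863258), was the only tested member of that subfamily. It was at 6.43, 5.74, 6.36, 6.2 and 6.06 CPM in DMSO and at 9.3, 9.82, 8.78, 9.06 and 8.89 CPM in enzalutamide. The groups did not overlap, and the rise was 1.49-fold (log2 change 0.57 with SE 0.0767, adjusted p = 1.35e-05). Kcnma1, which encodes the large-conductance BK channel, was at 2.11 ± 0.311 and 2.56 ± 0.593 CPM (adjusted p = 0.259), and its β subunit genes Kcnmb1, Kcnmb2, Kcnmb3 and Kcnmb4 had too few counts to test.

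The tested relatives of the BK channel gene, Kcnu1 and Kcnt2, were scarce. Kcnu1, which encodes the sperm channel Slo3 (chromosome 8, 25849623 to 25937939), was at 1.61, 1.4, 2.13, 0.92 and 1.94 CPM in DMSO and at 3.47, 3.29, 2.2, 3 and 1.95 CPM in enzalutamide (log2 change 0.80 with SE 0.23, adjusted p = 0.0105). Enzalutamide library 5 lay within the DMSO range. Kcnt2, which encodes a sodium-activated channel (chromosome 1, 140246158 to 140612067), was at 0.136 ± 0.115 and 0.444 ± 0.169 CPM (log2 change 1.69 with SE 0.566, adjusted p = 0.0249), with DMSO library 5 listed at 0. Its DMSO mean was under 0.2 CPM, so it was tested only through its level in enzalutamide, and its call is given as a description. The call on Kcnt2 ended without DMSO library 2 or enzalutamide library 1 or 4 (adjusted p between 0.0561 and 0.0592) and without a filter on low counts (0.101).

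**Figure D4:**
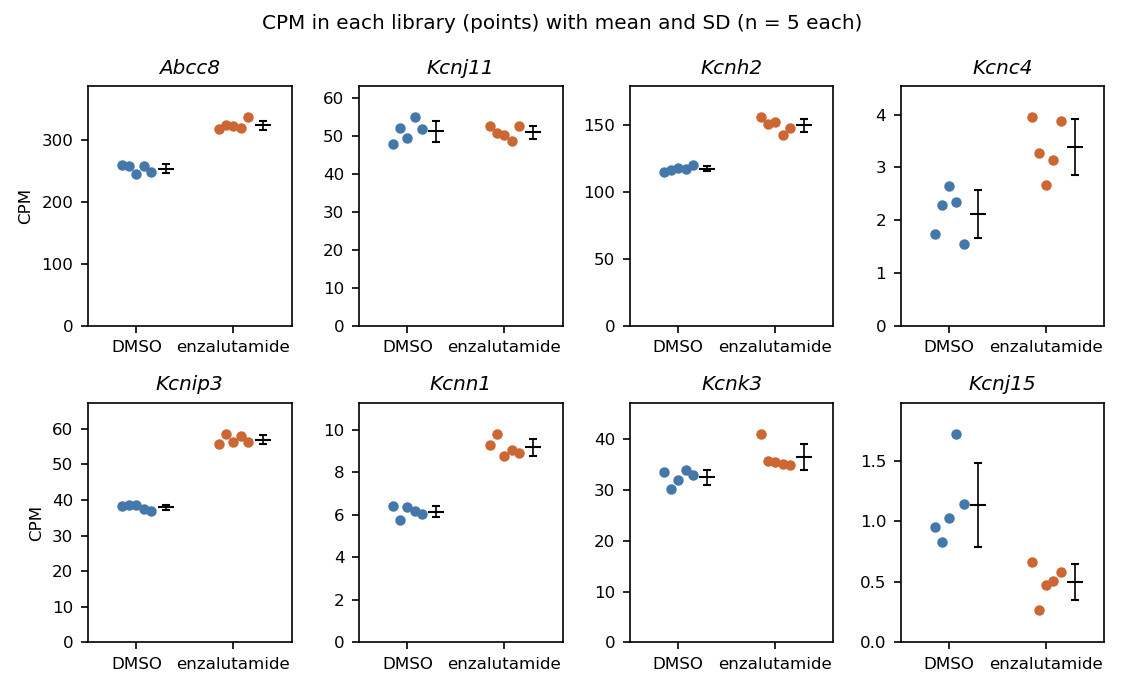
CPM (y axes, linear, from 0) in each of the 5 DMSO and 5 enzalutamide libraries (points), with mean and SD, for Kcnj11 and 7 of the 9 members that passed without overlap between the groups. Kcnj11 overlaps between the groups, Abcc8, Kcnh2, Kcnc4, Kcnip3, Kcnn1 and Kcnk3 are higher in enzalutamide, and Kcnj15 is lower.

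The remaining 60 entries were under the limit for testing, and 31 of them were listed at 0 in every library. Listed at 0 were the Kv1 genes Kcna2, Kcna3 and Kcna10, both entries of Kcnb2, the Kv4 gene Kcnd2, and the auxiliary genes Kcne1, Kcne1l, Kcne3 and Kcnmb4. So were the modifier subunit genes Kcnf1, Kcng1, Kcng3, Kcns2, Kcns3, Kcnv1 and Kcnv2, and Kcnh8. The inward rectifier genes Kcnj1, Kcnj2, Kcnj4, Kcnj5, Kcnj12 and Kcnj16, the leak channel genes Kcnk5, Kcnk6 and Kcnk9, and Kcnn2, Kcnn4, Kcnq3 and Kcnq5 were also at 0. The other 29 entries had at most 34 counts in any library. Among them were Kcna1, Kcna4, Kcna5, Kcna7, Kcnc2, Kcnd3, Kcne4, Kcng2, Kcng4, Kcnh1, Kcnh3, Kcnip1, Kcnip2, Kcnj3, Kcnj6, Kcnj8, Kcnj10 and Kcnj13, and also Kcnk7, Kcnk12, Kcnk15, Kcnk18, Kcnmb1, Kcnmb2, Kcnmb3, Kcnn3, Kcns1 and Kcnt1.

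Genes that work with potassium channels under other symbols gave a mixed picture. Of 19 listed channel partners 17 were tested, of which 3 were higher and 8 lower, against 19.3% higher and 19.7% lower over all genes tested, with a median log2 change of -0.19. The Kv4 partner genes Dpp6, from 3.67 ± 0.408 to 1.53 ± 0.411 CPM (log2 change -1.26, adjusted p = 3.04e-05), and Dpp10, from 181 ± 3.26 to 141 ± 3.19 CPM (-0.36, adjusted p = 4.17e-08), fell while Kcnip3 rose. Calm2 and Calm3, which encode calmodulin, the calcium sensor of SK channels, fell with log2 changes of -0.27 and -0.25. Snap25, a SNARE protein gene (-0.19), and Akap5, a kinase anchor gene (-0.68), were also lower. Lrrc52, whose product is a partner of Slo3, went from 0.512 ± 0.219 to 0.167 ± 0.0998 CPM (-1.59, adjusted p = 0.024). The enzalutamide mean of Lrrc52 was under 0.2 CPM, so it was tested only through its level in DMSO. Its call, 1 of the 8, is given as a description. Those higher were Amigo1, which encodes a partner of Kv channels (0.34), its relative Amigo2 (0.35) and the lysosomal potassium channel gene Tmem175 (0.26).

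Of 10 genes of related cyclic nucleotide-gated channels 3 were tested, and 2, both of hyperpolarisation-activated channels, rose (19.3% of all genes tested were higher). Hcn2 went from 128 ± 4.9 to 168 ± 11.2 CPM (log2 change 0.39, adjusted p = 1.67e-06) and Hcn3 from 39.3 ± 3.41 to 50.1 ± 4.23 CPM (0.35, adjusted p = 0.000315). Of 24 genes of potassium pumps and cotransporters 11 were tested, 6 were higher and none lower (19.3% and 19.7% over all genes tested), with a median log2 change of 0.14. Among those higher were the sodium pump β subunit genes Atp1b1 (0.14) and Atp1b3 (0.12), the pump modulator gene Fxyd6 (0.51) and the cotransporter gene Slc12a2 (0.15). Of 8 other genes of the transporter family of the sulfonylurea receptors 4 were tested, with log2 changes between -0.04 for Abcc5 and 0.13 for Abcc10 and adjusted p-values from 0.232 to 0.957.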

How the data were processed

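The authors deposited whole-number counts per gene for the 10 libraries and a signal table of the same counts divided by size factors; per the submitters' processing notes, HISAT2, StringTie, DESeq2 and mm10 were used, and the treatment of strand and of multiply mapped reads was not given in the sources used here. The normalized table was checked against the counts and used only in alternatives. Counts were tested with edgeR 4.0.16 (R 4.3.3; quasi-likelihood, TMM scaling), without covariates, on genes with a mean of at least 0.2 CPM, with Benjamini-Hochberg adjustment over all of them and a threshold of 0.05. The SE is the log2 change over the square root of F, and 95% intervals use 1.96 SE. The ratio of Abcc8 to Kcnj11 within libraries was tested by exact permutation. Exon lengths and positions came from GENCODE M21, in which 96.5% of the gene IDs were found. The fit was also run on simulated data with the same spread for all genes. The changes put in were larger than those of Abcc8 and Kcnh2 and left out the scarcest genes. That run therefore does not cover scarce members or small changes. Values per library were given for Kcnj11, Abcc8 and the members that passed without overlap (up to 12, by size of change), and added for other called members. Some members and list genes are not reported here by name, though they stay in the counts and sums. The members and lists were chosen with earlier results of these data known. Replicate numbers did not pair the libraries. Where libraries were not separate cultures, p-values measure technical spread. Alternatives were filters, scalings, tools, the replicate block and each library left out.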

Additional observations from a re-analysis of the deposited data

Results flagged for a closer look

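In 3 of the 74 groups of 5 libraries, 1 library stood apart from the others of its group, by a gap over 0.71 of the whole range, which chance gives in about 1 of 20 groups. Kcnk3 was at 41 CPM in enzalutamide library 1 and at 34.8 to 35.6 CPM in the others of that group. Kcnh7 was at 0.757 CPM in DMSO library 4 and at 0.253 to 0.395 CPM in the others. Kcnh5 was at 0.614 CPM in enzalutamide library 1 and at 0 to 0.165 CPM in the others.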

How the results depend on the processing

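Over 22 alternatives the number of potassium channel genes called was 11 to 15, with 8 to 11 higher and 3 to 5 lower, and 11 of the 14 called members kept their call and direction wherever they were tested; the exceptions were Kcnh6, Kcnk3 and Kcnt2. Replicate numbers did not pair the libraries (correlations of same-numbered libraries from -0.0238 to 0.0334), and a fit with the replicate block called 10 higher and 5 lower, adding Kcnk2. The small log2 change of Kcnj11 turned to 0.0303 with total-count scaling and ran from -0.0305 to 0.0189 when 1 library was left out. Among uncalled genes that of Kcnj9 turned to 0.00481 with total-count scaling. With 1 library left out it ran from -0.12 to 0.0216 for Kcnj9, from -0.0232 to 0.27 for Kcnab3, from -0.0282 to 0.60 for Kcne2 and from -0.27 to 0.0307 for Kcnj14. The cause of these turns was not tested. Of the 23 uncalled members 19 were called under no alternative. Depth limits the 13 tested members under 1 CPM.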

Other observations

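The members under the limit for testing went in both directions. Several had more counts in enzalutamide, such as Kcnc2 with 13 in DMSO and 73 in enzalutamide, and Kcns1 with 19 and 58. Several others had more counts in DMSO, and 3 of these are given here. Kcnd3, which encodes an A-type channel, had 103 counts in DMSO, spread over 5 libraries, and 13 in enzalutamide, in 2 libraries (adjusted p = 0.0703 in edgeR without a filter on low counts). Kcnj3, which encodes the G protein-gated subunit GIRK1, had 70 and 10 counts in the same numbers of libraries (adjusted p = 0.0724). Kcnh1, which encodes EAG1, had 26 counts in 4 DMSO libraries and was listed at 0 in enzalutamide (adjusted p = 0.0262). It entered that fit only through its DMSO counts, so its adjusted p is given as a description. Kcnh1 was the only 1 of 29 such members under 0.05 without the filter. Over all genes in that fit 2441 were higher and 2443 lower, of 20524. These genes were singled out after their values were seen.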
